A study of Mus musculus with 4 samples.

Results

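The 10 genes described here belong to epidermal growth factor (EGF) receptor signalling and were followed across mouse kidney cell types after injection of the hormone FGF23. They comprise the ligands Hbegf, Areg, Ereg, Tgfa, Btc and Egf, the receptors Egfr, Erbb2 and Erbb3, and the feedback inhibitor Errfi1. The members were taken by symbol, and all 10 were found among the 31053 genes of the deposited feature lists. The set was chosen by earlier results of these libraries, namely the CPM of Hbegf, Errfi1 and other members by class and time, so the values below are a description and carry no test.

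Kidney cells of 10-week-old C57BL/6J mice, male and female kidneys pooled in pairs, were profiled by droplet single-cell RNA sequencing. Mice received 10 µg of recombinant human FGF23 intraperitoneally and were killed 1, 4 or 12 h later, and the baseline library is labelled 0 h with a dose of 0 µg. The name of its deposited matrix instead describes saline at 1 h, so whether those mice were injected is not settled. No genetic change is named for any group, and all groups share the enzymatic digestion and the removal of dead cells. There was 1 library per group, so no difference between times has a replicate check, and time cannot be told apart from library or animals.

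The EGF receptor is a receptor tyrosine kinase that pairs with itself or with the related receptors Erbb2 and Erbb3 when a ligand binds. Its ligands are made as membrane-bound precursors and released by proteases such as Adam17. Errfi1 (also called Mig6) is induced by receptor signalling and binds the activated kinase to switch it off. In the kidney, Egf is a product of the distal nephron, and it is known for stimulating magnesium uptake in the distal convoluted tubule.

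The libraries held 12245 to 13813 barcodes and 139675666 to 158838728 unique molecular identifiers (UMIs, counts of captured transcripts), and 8758 to 10131 cells remained after filtering. Any pair of libraries shared 36 to 57 barcodes. Classes were rebuilt from clusters by marker genes and are called proximal tubule (PT)-like, thick ascending limb (TAL)-like, distal convoluted tubule (DCT)-like, connecting tubule (CNT)-like, principal cell (PC)-like, intercalated cell (IC)-like and so on. DCT-like cells numbered 323, 283, 346 and 266 at 0, 1, 4 and 12 h, and all 5 of their markers were on, with Slc12a3, the thiazide-sensitive sodium chloride cotransporter, at 12890, 13030, 11780 and 11780 CPM (counts per 1000000 UMIs of that class and library). CNT-like cells numbered 94, 132, 172 and 155, with all 5 markers on, among them Calb1 at 8683, 8359, 7871 and 5002 CPM. A further cluster carried markers of both segments at a median depth of 0.46 of its library's and is kept apart as mixed distal cells (76, 63, 135 and 179 cells). Intervals are exact 95% intervals for counting error only. Levels are compared between classes and times for 1 gene at a time, not between genes, since the counts are not scaled to transcript length or capture.

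At 0 h the members differed in where along the nephron they were highest, among the classes plotted. Egf was highest in TAL-like cells at 5853 CPM (5768 to 5939), with 2411 CPM in DCT-like cells (2358 to 2465) and 298 CPM in CNT-like cells (269 to 329), and these intervals did not overlap. Btc was highest in the PC-like class (240 CPM, 210 to 274), against 6.82 CPM or less in every other class plotted. Errfi1 was highest in PT-like cells at 532 CPM (528 to 537), against 43.7 CPM or less in the other classes plotted. Hbegf was highest in urothelial-like cells at 102 CPM (71.9 to 139) from 29 cells, and lower, though with overlapping intervals, in endothelial-like (70.0 CPM, 53.0 to 90.7) and PC-like cells (54.6 CPM, 40.5 to 71.9). Egfr was 53.5 CPM in PC-like cells (39.6 to 70.7), its highest class, then 40.1 CPM in urothelial-like cells (22.4 to 66.1), with PT-like cells next (28.4 CPM, 27.3 to 29.6). The segments with the highest Egf thus had little Egfr transcript, at 11.3 CPM in TAL-like cells and 5.15 CPM in DCT-like cells.

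**Figure D1:**
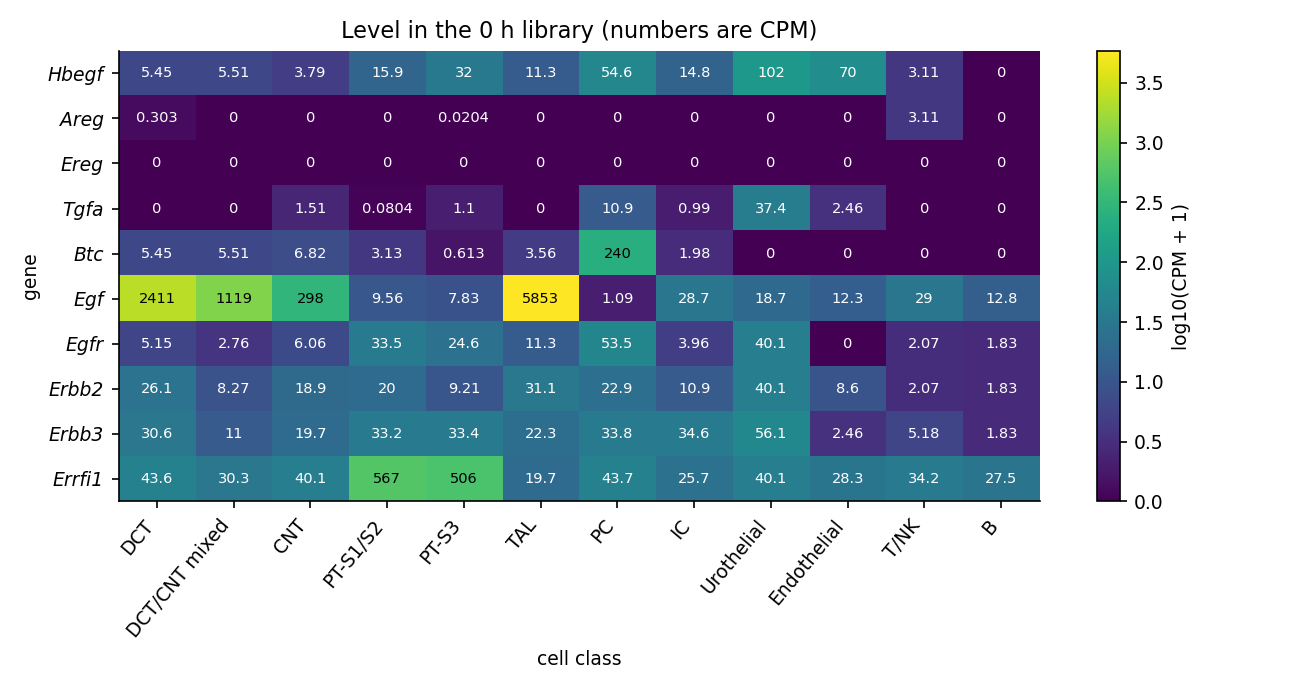
Level of the 10 genes (rows) in 12 cell classes (columns) of the 0 h library. The numbers are CPM and the colour is log10(CPM + 1); Egf stands out in TAL-like cells (5853), Btc in PC-like cells (240) and Errfi1 in both parts of the PT-like class.

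Promoter windows, from 250 bases before to 50 bases after a start site, were found in RefSeq (GRCm38.p6) for 7 of the 10 members in 9 windows. Hbegf, Ereg and Erbb3 had no window there, so their promoters were not searched and nothing is said of their sites. The windows were searched on both strands for the sites of factors that respond to growth factor signalling. The cAMP response element (CRE, TGACGTCA, a palindrome) was found in the window of the second start site of Errfi1 and in the Areg window, and in 1.79% of 32851 promoter windows of the same length. The bases before the start site are shown for these 2 because they share that element, and for the first Egf start site because none of the 6 motifs was in its window. The windows of Tgfa, Btc, Erbb2 and the first Errfi1 start site held no motif either. The Errfi1 stretch lies in an intron of the longer Errfi1 transcript, and Areg and Egf are shown upstream of the gene. Capitals mark the CRE, whose first base lies at -51 from the start site in Errfi1 and at -61 in Areg.
Errfi1, chr4:150854820-150855069, plus strand: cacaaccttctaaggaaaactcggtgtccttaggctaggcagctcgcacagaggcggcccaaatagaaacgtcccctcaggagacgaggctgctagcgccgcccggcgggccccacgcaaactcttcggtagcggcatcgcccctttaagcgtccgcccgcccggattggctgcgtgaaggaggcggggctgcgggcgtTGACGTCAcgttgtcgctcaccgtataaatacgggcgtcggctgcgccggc
Areg, chr5:91139349-91139598, plus strand: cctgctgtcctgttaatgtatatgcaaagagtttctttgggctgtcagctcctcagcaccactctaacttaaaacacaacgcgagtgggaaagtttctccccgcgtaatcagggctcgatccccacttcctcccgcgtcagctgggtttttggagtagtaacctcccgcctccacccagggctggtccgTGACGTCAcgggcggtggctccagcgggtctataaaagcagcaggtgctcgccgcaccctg
Egf, chr3:129755323-129755572, minus strand: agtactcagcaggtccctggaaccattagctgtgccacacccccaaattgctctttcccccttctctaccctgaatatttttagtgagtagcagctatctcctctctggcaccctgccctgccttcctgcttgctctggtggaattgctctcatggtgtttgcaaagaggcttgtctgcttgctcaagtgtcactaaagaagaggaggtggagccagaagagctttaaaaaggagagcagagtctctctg
The ETS site CCGGAAG was found in the Egfr window and in that of the second Egf start site, and in 8.86% of all windows. The AP-1 site TGANTCA (7.81% of all windows), the EGR site GCGNGGGCG (5.55%), the SRF CArG box (1.63%) and the NF-kB site (4.51%) were in none of the 9. These are matches of letters and not measured binding, and the levels of Errfi1 and Areg, which share the element, are given separately below.

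Hbegf encodes heparin-binding EGF-like growth factor, a ligand of Egfr and Erbb4 (chromosome 18, 36504927 to 36515805, minus strand, GRCm38). In DCT-like cells the 0 h level was 5.45 CPM (3.23 to 8.62), followed by 443 (421 to 466), 397 (378 to 416) and 22.6 CPM (17.6 to 28.4) in the 1, 4 and 12 h libraries. The 1 and 4 h libraries were high, the 12 h library was nearer to 0 h, and no later interval overlapped that of 0 h. Against 0 h, the 1 h level was 81.2-fold (log2 6.34, 5.68 to 7.10), the 4 h level 72.7-fold (log2 6.18, 5.52 to 6.94) and the 12 h level 4.14-fold (log2 2.05, 1.29 to 2.88). The 0 h level rested on 18 UMIs and lay within the interval for B-like cells of that library (0 to 6.76 CPM), a class taken as background, so the fold rests on a baseline that cannot be told from background.

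The Hbegf signal in DCT-like cells was spread over most of them at 1 and 4 h. In order of time, 5.26%, 71.7%, 77.2% and 16.2% of cells held a UMI. After thinning to 2000 UMIs per cell the shares were 1.89% (0.695 to 4.06), 40.0% (34.2 to 46.0), 45.0% (39.7 to 50.5) and 4.58% (2.39 to 7.86), with 3 to 5 shallower cells left out per library. In B-like cells, whose median depth was 2032 to 2456 UMIs against 10650 to 12220 in DCT-like cells, the unthinned share was 0 of 192 at 0 h, which by a floor of 3 counts allows a share of up to 1.56% (Clopper-Pearson upper bound 1.90%), and 1.68% at 1 h. At least 5 Hbegf UMIs were found in 0, 92, 126 and 2 DCT-like cells in order of time. The tenth of the cells with the most Hbegf held 45.4% of its UMIs at 1 h and 39.7% at 4 h.

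CNT-like cells, the next segment, had much less Hbegf. In order of time their levels were 3.79 (1.23 to 8.84), 16.2 (11.1 to 22.9), 33.2 (26.7 to 40.8) and 6.19 CPM (3.38 to 10.4). The 1 and 4 h levels lay above 0 h without overlap, at a log2 ratio of 2.10 (0.73 to 3.82) and 3.13 (1.85 to 4.79), while 12 h overlapped it. The 0 h level rested on 5 UMIs and lay within the B-like interval (0 to 6.76 CPM), and the 1 h interval overlapped that of B-like cells (1.18 to 16.7). The tenth of the cells with the most Hbegf held 75% of its UMIs at 1 h and 73.3% at 4 h. DCT markers in CNT-like cells summed to 4531, 4855, 3658 and 3644 CPM, and their part was not tested. With cells assigned singly by marker UMIs the 4 h ratio was 0.60, no longer past 2-fold, in a gate of 1980 cells of which 165 were in the CNT-like class. At 1 h the DCT-like level of 443 CPM and the CNT-like level of 16.2 CPM were far apart, although the 0 h levels overlapped. Mixed distal cells lay between them at 1 and 4 h, with 5.51, 167, 166 and 18.7 CPM in time order, from 2, 49, 132 and 17 UMIs. The thinned share in CNT-like cells was 3.03% at 1 h (0.832 to 7.58) and reached 7.06% at 4 h (3.70 to 12.0), from 12 of 170 cells. Both intervals overlapped that of 0 h (0 to 3.89).

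In PT-like cells as a whole Hbegf was high at 1 h alone, while in female-called ones it was also above 0 h at 4 h. Levels in time order were 25.1 (24.0 to 26.1), 138 (136 to 140), 24.6 (23.6 to 25.6) and 12.4 CPM (11.7 to 13.2). The log2 ratio at 1 h was 2.46 (2.40 to 2.53), the 4 h library overlapped 0 h, and the 12 h library was lower at -1.01 (-1.12 to -0.90), or -0.38 in female-called cells alone. Within the class, cells of segments S1 and S2 had 15.9 and then 148 CPM (log2 3.22) and S3 cells 32.0 and then 127 CPM (log2 1.99). The order of the 2 parts at 0 h was reversed at 1 h. At 0 h the S3 part held 2027 male-called and 78 female-called cells, and the S1 and S2 part 990 and 1286. Segment and sex thus cannot be told apart in this order, and the part of each was not tested.

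Hbegf in PC-like cells was 54.6, 113 (88.8 to 141), 58.5 (48.1 to 70.6) and 12.3 CPM (6.37 to 21.5) in time order. These cells, which number 57 to 113 per library, were high at 1 h and low at 12 h, with log2 ratios of 1.05 (0.51 to 1.59) and -2.15 (-3.19 to -1.22). Urothelial-like cells had 102, 48.7, 94.0 and 50.7 CPM from 29 to 77 cells, with the 1 and 12 h libraries low. Endothelial-like cells had 70.0, 103, 75.9 and 81.3 CPM, and all 4 intervals overlapped. TAL-like cells had 11.3, 20.5, 16.0 and 10.9 CPM and IC-like cells 14.8, 28.5, 12.5 and 14.6 CPM. Both were under 2-fold at every time. In T and NK-like cells the 28 UMIs at 1 h came from 2 cells, 19 of them from 1 cell, and in B-like cells Hbegf was at 0 UMIs in 3 of the 4 libraries.

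**Figure D2:**
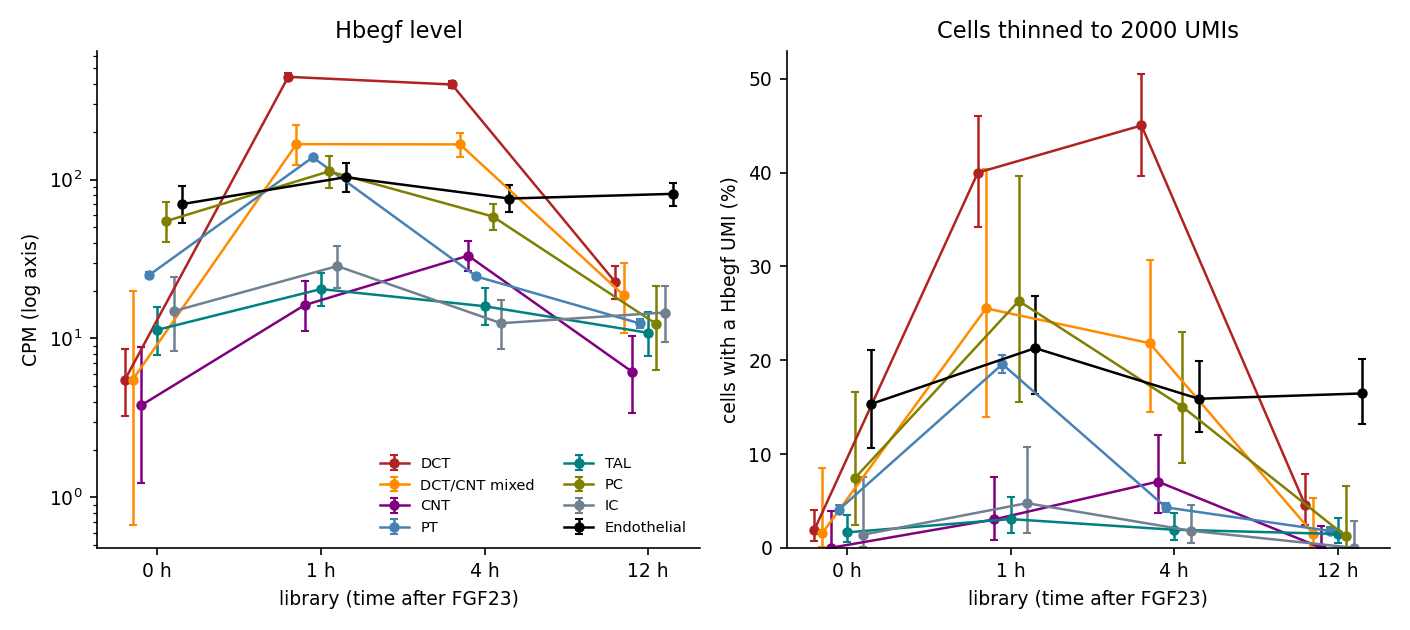
Hbegf by library (x axis, evenly spaced, not to scale in time) in 8 cell classes. Left, CPM on a log axis with exact Poisson 95% intervals; right, percent of cells with a Hbegf UMI after thinning to 2000 UMIs with Clopper-Pearson 95% intervals; DCT-like cells are highest at 1 and 4 h (443 and 397 CPM, 40.0% and 45.0%) and PT-like cells are high at 1 h alone.

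Genes on a list drawn up for tissue dissociation were past 2-fold in DCT-like cells as well, and their part in the Hbegf values was not tested. With 1 library per time, an effect of handling on such genes cannot be told apart from one of FGF23. Of 12 such genes, Junb, Atf3 and Hspa1b were past 2-fold upward at 1 h (3.65% of all genes were past 2-fold). At 4 h, when Hbegf was still 72.7-fold, Junb was past 2-fold upward and Fos and Fosb downward (8.92%). At 12 h 7 of the 11 with enough UMIs were past 2-fold downward (6.36%). In time order the list's median log2 ratio was 0.45, 0.15 and -1.17, against -0.03, 0.00 and 0.05 over all genes. In TAL-like cells the list had a median of 0.73 at 1 h while Hbegf was 0.85 (0.25 to 1.48). Summed erythroid markers in DCT-like cells were 492, 0, 3.098 and 401 CPM in time order, with 5, 0, 2 and 5 of the 5 genes detected, high in the 2 libraries where Hbegf and Errfi1 were low, and their part was not tested. The median share of mitochondrial UMIs in these cells was 34.8%, 35.1%, 27.99% and 30.6%.

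Egf, the precursor of epidermal growth factor (chromosome 3, 129677565 to 129755316, minus strand), was lower in DCT-like cells at every later time. Its levels in time order were 2411, 1835 (1790 to 1882), 1229 (1195 to 1263) and 866 CPM (834 to 899). No 2 of the 4 intervals overlapped, and the log2 ratios were -0.39 (-0.44 to -0.35), -0.97 (-1.02 to -0.92) and -1.48 (-1.54 to -1.41). After thinning, the share of DCT-like cells with an Egf UMI was 92.5%, 87.1%, 79.2% and 69.1%.

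TAL-like cells, where Egf was highest, stayed within 0.23 on the log2 scale of 0 h. Their levels were 5853, 5998, 4993 and 5571 CPM, with log2 ratios of 0.04, -0.23 and -0.07. The 12 h ratio in DCT-like cells and that in TAL-like cells thus differed by more than the counting intervals of both (-1.54 to -1.41 against -0.10 to -0.04), with no replicate behind either. The summed TAL markers in DCT-like cells were 3390, 3259, 3694 and 2155 CPM over 6 of 6 genes (5 of 6 at 12 h). Nearly all of this was Umod (3354, 3223, 3620 and 2078 CPM), while Slc12a1, the TAL's defining cotransporter, was at 15.7 to 45.8 CPM in DCT-like cells against 6204 to 7237 CPM in TAL-like cells. DCT-like cells with no Slc12a1 UMI, an alternative chosen after seeing the data, gave Egf ratios of -0.41, -1.01 and -1.49. That filter kept 311 of 323, 275 of 283, 326 of 346 and 252 of 266 cells in time order, so it could change the ratios little. The part of TAL transcripts in the Egf values of DCT-like cells was not tested.

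In CNT-like cells Egf was 298, 239 (218 to 262), 112 (100.1 to 126) and 65.0 CPM (54.9 to 76.3) in time order. The log2 ratios were -0.32, -1.41 (-1.63 to -1.19) and -2.20 (-2.48 to -1.92). This rests on few cells with many UMIs, since 37.2% of CNT-like cells had an Egf UMI at 0 h and 18.7% at 12 h. A mitochondrial limit of 25% in place of 50% left 22 CNT-like cells and 10 Egf UMIs at 0 h and gave ratios of 0.96, 0.45 and -0.14, so that neither the 4 h nor the 12 h ratio stayed past 2-fold. Both also ended within 2-fold in male-called cells alone (1.37, -0.01 and -0.82) and with cells assigned singly by marker UMIs (-0.11, -0.54 and -0.27), a gate that mostly took cells of other classes. TAL markers in CNT-like cells summed to 304, 488, 286 and 156 CPM, and their part in the Egf values was not tested. Mixed distal cells had 1119, 1439, 725 and 417 CPM.

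In PT-like and endothelial-like cells Egf was near background. PT-like cells held 6.98 to 8.58 CPM, within the range of 5.72 to 12.8 CPM in B-like cells. The 118 UMIs in endothelial-like cells at 4 h (85.3 CPM, log2 2.80) included 90 from 1 cell, and 3.17% of cells had any, against 3.05% at 0 h.

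**Figure D3:**
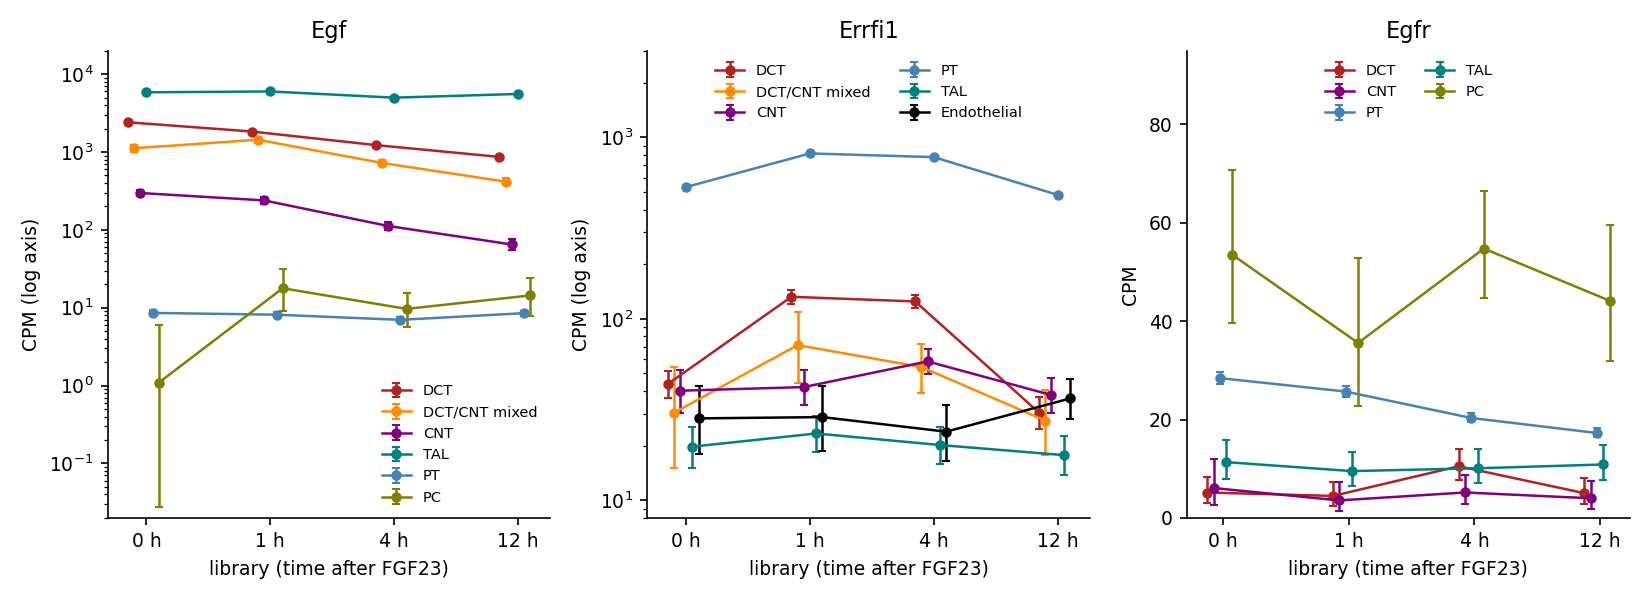
Egf, Errfi1 and Egfr by library (x axis, evenly spaced) in selected cell classes, as CPM with exact Poisson 95% intervals (log axes for Egf and Errfi1, linear from 0 for Egfr). Egf in DCT-like cells is 2411 CPM at 0 h and 866 at 12 h while TAL-like cells are at 4993 to 5998, Errfi1 is highest in PT-like cells at all times, and Egfr in PT-like cells is 28.4 CPM at 0 h and 17.3 at 12 h.

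Btc encodes betacellulin, a ligand of Egfr and Erbb4 (chromosome 5, 91357261 to 91402994, minus strand). The levels in PC-like cells were 240, 130 (105 to 161), 210 (190 to 232) and 132 CPM (110 to 156). The 1 and 12 h libraries were low and the 0 and 4 h libraries high, each pair overlapping, with log2 ratios of -0.88, -0.19 and -0.87. The share of PC-like cells with a Btc UMI after thinning was 32.8%, 28.1%, 25.7% and 21.95%, and these 4 intervals overlapped. Cells of the unnamed clusters held 99, 85, 547 and 92 Btc UMIs in time order, at 4 h more than the 391 of the PC-like class. One unnamed cluster, of 33, 21, 77 and 34 cells, held 7 PC markers and also intercalated-cell ones, and Btc was among its leading genes. Among the other named classes, PT-like cells had 1.70, 2.08, 1.29 and 2.92 CPM, and endothelial-like and B-like cells had no Btc UMI in any library.

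Tgfa, transforming growth factor alpha (chromosome 6, 86195223 to 86275719, plus strand), was highest in urothelial-like cells at 37.4, 28.2, 25.5 and 28.7 CPM, with overlapping intervals. PC-like cells followed at 10.9, 13.3, 18.3 and 6.16 CPM. It was at 0 UMIs in DCT-like cells of all 4 libraries, which by the same floor of 3 counts allows up to 0.867% to 1.13% of cells with a UMI (Clopper-Pearson upper bounds 1.06% to 1.38%), and under 1 CPM in PT-like cells. Areg, amphiregulin (chromosome 5, 91139599 to 91148432, plus strand), reached 34 UMIs in all cells kept, with 9 UMIs from 1 T and NK-like cell at 1 h and 5 UMIs in urothelial-like cells at 1 h. Ereg, epiregulin (chromosome 5, 91074622 to 91093646, plus strand), had 1 UMI in all. Neither ligand could be compared between times at this depth.

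Egfr, the receptor bound by all 6 ligands (chromosome 11, 16752203 to 16918158, plus strand), had levels of 28.4, 25.7 (24.6 to 26.8), 20.3 (19.4 to 21.2) and 17.3 CPM (16.3 to 18.2) in PT-like cells, in time order. Each library was lower than the one before and no 2 intervals overlapped, with log2 ratios of -0.15, -0.48 (-0.57 to -0.40) and -0.72 (-0.82 to -0.62). Both parts of the class were lower at 12 h, S1 and S2 cells at -0.80 and S3 cells at -0.75. PC-like cells had 53.5, 35.6, 54.8 and 44.2 CPM, with overlapping intervals, and TAL-like cells 9.51 to 11.3 CPM. DCT-like cells had 5.15, 4.46, 10.5 and 5.01 CPM, so the 4 h library was the high one, at a log2 ratio of 1.03 (0.19 to 1.93) from 17 and 44 UMIs. The thinned shares in DCT-like cells were 0.629% to 1.46%, too close to single UMIs to read a change from. With cells assigned singly by their Slc12a3, Calb1 and S100g UMIs, the 4 h ratio was -0.10, and it was also under 2-fold at a mitochondrial limit of 25% (0.70), with cells weighted equally (0.35), at a clustering resolution of 1.0 (0.89), on nuclear UMIs only (0.91) and in female-called cells alone (0.96). Egfr in CNT-like cells was 3.55 to 6.06 CPM.

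Erbb2, the receptor with no ligand of its own (chromosome 11, 98412470 to 98437716, plus strand), was 13.9, 13.9, 18.1 and 19.5 CPM in PT-like cells, with log2 ratios of 0.00, 0.38 (0.27 to 0.49) and 0.49 (0.38 to 0.60). There the 4 and 12 h libraries were higher than the first 2. DCT-like cells had 26.1, 31.8, 37.9 and 24.4 CPM, and the 4 h interval alone did not overlap that of 0 h, by a narrow margin. The 0 and 4 h levels in PC-like cells were 22.9 and 48.3 CPM (log2 1.08, 0.38 to 1.84). TAL-like cells stayed at 29.1 to 37.2 CPM.

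Erbb3, a partner receptor with a weak kinase that binds neuregulins (chromosome 10, 128567523 to 128589652, minus strand), was lower in DCT-like cells after 0 h. Its levels were 30.6 (24.9 to 37.2), 13.7 (10.0 to 18.2), 21.9 (17.7 to 26.9) and 19.1 CPM (14.6 to 24.5). The 1 h library was lowest, at a log2 ratio of -1.16 (-1.70 to -0.65), and under each of 10 alternatives this ratio stayed between -1.27 and -0.89, the last of these, with cells assigned singly, being under 2-fold. At 4 h the level interval overlapped that of 0 h, at a log2 ratio of -0.48 (-0.90 to -0.06). PT-like cells were higher at 12 h, at 33.3, 28, 33.3 and 41.3 CPM (log2 -0.25, 0.00 and 0.31).

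Errfi1, the feedback inhibitor (chromosome 4, 150853919 to 150868892, plus strand), had levels of 43.6 (36.8 to 51.4), 132 (120.2 to 145), 125 (114 to 136) and 30.4 CPM (24.6 to 37.1) in DCT-like cells, in time order. The 1 and 4 h libraries were high and overlapped each other, at log2 ratios of 1.60 (1.33 to 1.88) and 1.51, and 12 h was at -0.52 (-0.91 to -0.14). These are the 2 libraries in which Hbegf was high in the same cells. Thinned shares of DCT-like cells with an Errfi1 UMI were 6.92%, 19.6%, 20.2% and 8.02%. B-like cells had Errfi1 at 19.6 to 32.4 CPM and 3.97% to 6.93% of thinned cells, and the intervals of DCT-like cells at 0 and 12 h overlapped those of B-like cells.

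When cells were assigned singly by Slc12a3, Calb1 and S100g UMIs in place of clusters, the DCT ratios in time order were 0.44, 0.21 and -1.33 for Errfi1 and 4.69, 4.45 and 0.63 for Hbegf. Neither the Errfi1 ratios at 1 and 4 h nor the Hbegf ratio at 12 h was then past 2-fold, and Errfi1 at 12 h was past it downward. That gate took 421, 366, 462 and 392 cells, of which 315, 279, 343 and 263 were in the DCT-like class. The part of the cells from other classes in these values was not tested.

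In PT-like cells Errfi1 was 532, 815 (809 to 821), 778 (772 to 783) and 482 CPM (477 to 487). The 1 and 4 h libraries were again high, with log2 ratios of 0.61 (0.60 to 0.63), 0.55 (0.53 to 0.56) and -0.14 (-0.16 to -0.12). In time order the ratios were 0.35, 0.33 and -0.29 in male-called cells and 1.24, 1.14 and 0.34 in female-called cells, so the sign at 12 h differed between them. S1 and S2 cells had 567 CPM at 0 h and 937 CPM at 1 h and S3 cells 506 and 689 CPM. Hbegf in the PT-like class as a whole was high at 1 h but back at its 0 h level at 4 h, while Errfi1 was still high. In female-called PT-like cells alone, both Hbegf and Errfi1 were still above 0 h at 4 h. Errfi1 in CNT-like cells was 40.1, 42.0, 58.2 and 38.0 CPM, with level intervals that overlapped that of 0 h (30.1 to 52.5). Their log2 ratio at 4 h was 0.54 (0.08 to 1.01), or -0.12 in male-called cells alone. TAL-like cells at 17.7 to 23.3 CPM and endothelial-like cells at 23.9 to 36.4 CPM had intervals that overlapped those of B-like cells of the same library.

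A gene was counted as past 2-fold at a log2 ratio of 1 or more either way with at least 20 UMIs over the pair of libraries, and the share of all genes past it is given as the background. In DCT-like cells 7 of the 10 members passed the UMI minimum at each time. At 1 h 3 of them were past 2-fold (Hbegf and Errfi1 up, Erbb3 down), where 3.65% of all genes were. At 4 h 3 were (Hbegf, Errfi1 and Egfr up; background 8.92%), and at 12 h 2 were (Hbegf up and Egf down; background 6.36%). The median log2 ratio of the 7 was -0.21, 0.54 and -0.12. The members were chosen with these libraries in view, so nothing is read from the difference to the background.

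CNT-like cells had 1 of 6 members past 2-fold at 1 h (Hbegf up; background 3.45%), 2 of 6 at 4 h (Hbegf up and Egf down; 6.41%) and 1 of 5 at 12 h (Egf down; 4.78%). The Egf calls there ended under the 25% mitochondrial limit. PT-like cells had 1 of 8 at 1 h (Hbegf up; 2.37%), 0 of 8 at 4 h (5.83%) and 1 of 8 at 12 h (Hbegf down; 5.43%). TAL-like cells had 0 of 7 at each time (1.94%, 2.69% and 2.2%). PC-like cells had 1 of 6 at 1 h (Hbegf up; 4.27%), 1 of 7 at 4 h (Erbb2 up; 5.82%) and 1 of 6 at 12 h (Hbegf down; 5.25%). IC-like cells had 0 of 5 at 1 h (4.05%), 2 of 6 at 4 h (6.08%) and 0 of 5 at 12 h (4.62%), the 2 being Btc up from 2 to 24 UMIs and Egf down from 29 to 16 UMIs. Endothelial-like cells had 0 of 3 at 1 h (3.76%), 1 of 3 at 4 h (Egf up; 4.76%) and 0 of 4 at 12 h (4.54%). Hbegf was the member past 2-fold in the most classes at 1 h, namely DCT-like, CNT-like, PT-like and PC-like cells of the 7 classes. All comparisons share the 0 h library.

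**Figure D4:**
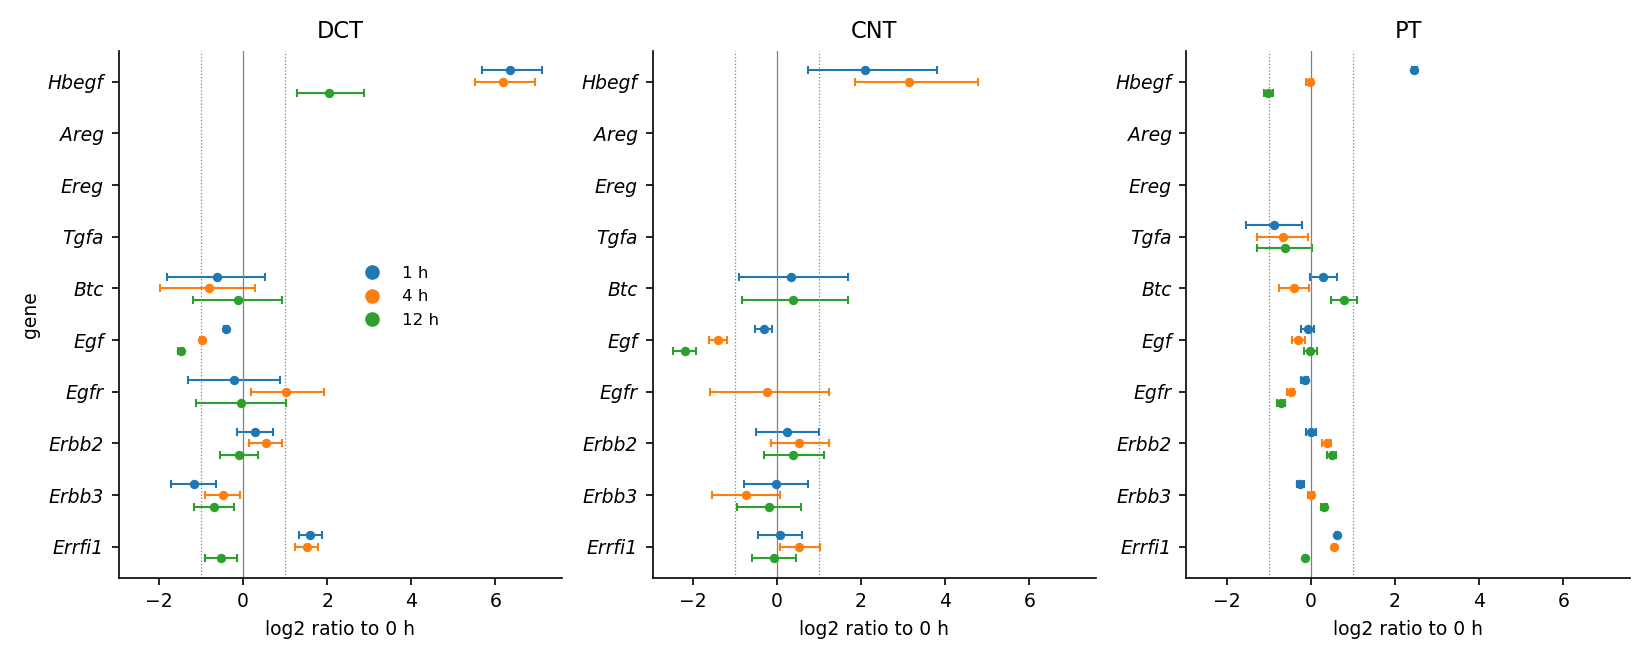
Log2 ratio of each later library to 0 h (x axis) for the 10 genes (y axis) in DCT-like, CNT-like and PT-like cells, with exact conditional binomial 95% intervals. Points are shown where the pair of libraries held at least 20 UMIs, dotted lines mark 2-fold, and Hbegf in DCT-like cells at 1 and 4 h (6.34 and 6.18) lies farthest to the right.

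The wider pathway was followed with 28 further genes (the neuregulins, Erbb4, release proteases, adaptors, Cbl ubiquitin ligases, Lrig inhibitors and Trpm6), of which 22, 23 and 23 passed the UMI minimum in DCT-like cells in time order. Past 2-fold were 2 up and 1 down at 1 h (3.65% of all genes), 2 up at 4 h (8.92%), and 1 up and 2 down at 12 h (6.36%). The list was drawn up with results of these libraries known, so nothing is read from its counts against those shares. Their median log2 ratios were 0.01, 0.19 and 0.00 (all genes -0.03, 0.00 and 0.05).

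Nrg1, a neuregulin that binds Erbb3 and Erbb4, had 10.3, 24.4, 59.6 and 11.9 CPM in time order, so that 4 h stood highest (log2 2.53, 2.01 to 3.09). Rhbdf1 (iRhom1), which escorts Adam17 to the cell surface, was past 2-fold at all 3 times, at 1.51, 4.75, 10.0 and 5.32 CPM, from 5 UMIs at 0 h. Adam17 itself, the sheddase of Hbegf, was 24.2, 21.7, 18.8 and 23.5 CPM. Lrig3 was 8.48 CPM at 0 h and 3.56 CPM at 1 h, from 28 and 12 UMIs. Cblb, a ubiquitin ligase, was 12.7 CPM in the first library and 5.64 CPM in the last (log2 -1.17). Trpm6, the apical magnesium channel on which Egf acts, was 153, 144, 132 and 70.2 CPM, so that only the 12 h library was past 2-fold (log2 -1.13, -1.36 to -0.90).

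In CNT-like cells 17, 19 and 18 of the 28 passed the minimum. None was past 2-fold at 1 h (3.45% of all genes). At 4 h 1 was up and 3 were down (6.41% of all genes). Rhbdf1 went from 0 to 28 UMIs, at least 4.54-fold higher against a floor of 3 counts in the 0 h library, while Rhbdf2, Cblb and Lrig2 were past 2-fold downward from 12 or 13 UMIs each at 0 h. At 12 h Rhbdf2, Cblb and the adaptor Shc1 were past 2-fold downward (4.78% of all genes), with Shc1 at 20.5 and 9.72 CPM. Trpm6 in these cells was 92.4, 109, 85.1 and 48.2 CPM. In PT-like cells the only one past 2-fold was Rhbdf2 at 4 h (5.83% of all genes), at 3.44 and 8.43 CPM.

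Each library pools male and female kidneys, and cells were called male or female by sex-linked transcripts. In DCT-like cells Hbegf was 5.29, 426, 461 and 28.5 CPM in male-called cells and 4.47, 510, 332 and 14.9 CPM in female-called cells. Both sexes were high at 1 and 4 h. Errfi1 in DCT-like cells was 60.4, 114, 90.2 and 28.5 CPM in male-called cells and 34.8, 131, 161 and 33.2 CPM in female-called cells. At 1 and 4 h its log2 ratios were thus 0.92 and 0.58 (male-called) against 1.91 and 2.21 (female-called), and whether the sexes differ was not tested with 1 library per time. The DCT-like class was 195 female-called to 87 male-called cells at 0 h and 115 to 110 at 12 h.

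Egf in DCT-like cells was 2397 CPM at 0 h and 843 CPM at 12 h in male-called cells, and 2427 and 890 CPM in female-called cells. Between 0 and 1 h, Hbegf was 33.4 and 156 CPM in male-called PT-like cells (log2 2.22), and 8.77 and 135 CPM in female-called ones (log2 3.95). The sexes were split unevenly between the named parts: at 0 h the S3 part held 2027 male-called and 78 female-called cells, and the S1 and S2 part 990 and 1286. The parts were named by marker scores alone, so the S3 part cannot be told apart from male-called cells. Hbegf at 0 h was 32.0 CPM in S3 cells and 15.9 CPM in S1 and S2 cells, and the part of the segment mix in the difference between the sexes was not tested. Errfi1 in PT-like cells was 611 CPM at 0 h and 782 CPM at 1 h for male-called cells, and 451 and 1067 CPM for female-called cells.

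**Figure D5:**
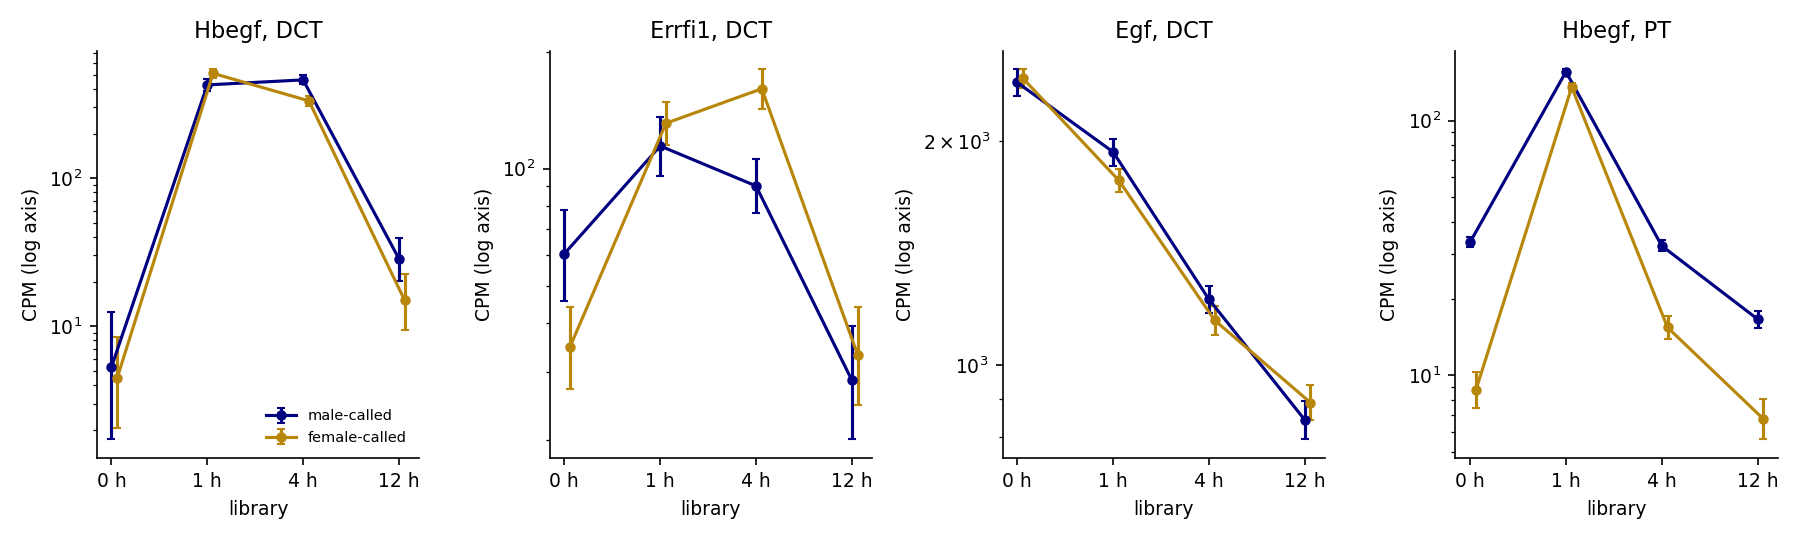
CPM (log axes) by library (evenly spaced) in male-called and female-called cells for Hbegf, Errfi1 and Egf in DCT-like cells and Hbegf in PT-like cells, with exact Poisson 95% intervals. Both sexes share the high 1 and 4 h libraries for Hbegf in DCT-like cells. In PT-like cells the 0 h level is 33.4 CPM in male-called cells, mostly in the part named S3, against 8.77 CPM in female-called cells, mostly in the part named S1 and S2.

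As a description of likeness, Pearson correlations of log2(CPM + 1) were taken over 28 points, 7 classes in 4 libraries that share depth and dissociation. The genes most like Hbegf were Mafk (0.80), Sertad1 (0.80), Nab1 (0.77), Atf4 (0.75) and Bhlhe40 (0.74). Those most like Errfi1, which was high in PT-like cells throughout, were AC166995.1, Msrb1, Tbx10, Odc1 and Plin5, at 0.91 to 0.92.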

How the data were processed

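Kidney cells were profiled by droplet 3' single-cell RNA sequencing, and the deposited files hold raw UMI counts per gene and barcode for 4 libraries, per the file headers. Cell Ranger 3.1.0, STAR, Seurat and the mm10 build are named in the submitters' processing notes, with no role given for each. Dissociation, free RNA and the 3' end capture could affect the counts.

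Barcodes with at least 300 genes and at most 50% mitochondrial UMIs were kept, and simulated doublets (an expected 0.8% for each 1000 cells, 30 neighbours) were called and removed. The cells were clustered (Leiden, leidenalg 0.10.2, resolution 1.5, 20 neighbours, 30 principal components, 2014 genes) with Python 3.11.15, numpy 2.4.6, scipy 1.17.1, scikit-learn 1.9.0 and igraph 0.11.9. The 10 members were kept out of the clustering. The 44 clusters were named from 110 markers, with thresholds set after the clusters were seen, and 10 stayed unnamed (5.52% to 7.18% of cells). Names are rebuilt and written "-like", and the figures (matplotlib 3.10.9) omit that ending. Cells were also called male or female by sex-linked UMIs.

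UMIs were summed per class and library as CPM with exact Poisson 95% intervals. For each ratio to 0 h the interval is the exact conditional binomial one, and for a share it is Clopper-Pearson's. All of them cover counting error only. A pair of libraries needed 20 UMIs for a ratio to be counted. With 1 library per group no test was run, and no count model was fitted. The members, the lists of pathway and dissociation genes and the alternatives were chosen with earlier results of these data known. All 10 members are named, and a pathway gene is named where it passed 2-fold or where its role bears on a member. Gene positions are from GENCODE on GRCm38, matched by identifier for 99.62% of the genes. The ratio calculation was tested on simulated data.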

Additional observations from a re-analysis of the deposited data

Results flagged for a closer look

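Several members were higher than at 0 h at 1 time and lower at another in the same class, and none of these differences was tested, since each time is 1 library. Errfi1 in DCT-like cells had log2 ratios of 1.60 at 1 h, 1.51 at 4 h and -0.52 at 12 h, so that 12 h differed from 1 h by 2.12 and from 4 h by 2.04. Hbegf in PT-like cells was at 2.46 at 1 h and -1.01 at 12 h, a difference of 3.47. Btc in PT-like cells was at -0.40 at 4 h and 0.78 at 12 h, a difference of 1.18, on levels of 1.29 and 2.92 CPM.

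Barcodes above the mitochondrial limit of 50% were not used in any comparison, and they too held the Hbegf signal. Among those with Slc12a3 UMIs enough to be gated as DCT (141, 132, 97 and 150 barcodes in order of time), Hbegf stood at 4.45, 146, 150 and 13.2 CPM from 5, 171, 119 and 18 UMIs. Against 0 h, log2 ratios of 5.04 (interval 3.79 to 6.68), 5.08 (3.82 to 6.73) and 1.57 (0.09 to 3.36) followed in time order.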

How the results depend on the processing

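The main results were the counts past 2-fold, the share of DCT-like cells with a Hbegf UMI, and the ratios of some genes. Those ratios were Hbegf in DCT-like, CNT-like and PT-like cells, and Errfi1 and Egf in DCT-like cells. Among these main results, 182 values under the alternatives stayed within their main counting interval or within 1.5 times their main count, and 71 moved. Of the other ratios of single genes, 364 stayed, 52 moved and 6 were counted as changed in sign. A ratio from few UMIs has a wide counting interval and so stays within it more easily, and these counts do not measure how stable the ratios are. A sign change was counted only where the main interval lay wholly on 1 side of no change. Other ratios that changed sign are among those that stayed or moved. The causes were not tested, and values are log2 ratios at 1, 4 and 12 h unless a time is named. No paired analysis was possible because each group has 1 library, and leaving out a replicate was not possible for the same reason.

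With cells gated singly by marker UMIs, DCT gave 4.69, 4.45 and 0.63 for Hbegf, -0.26, -0.83 and -1.27 for Egf and 0.44, 0.21 and -1.33 for Errfi1. Egfr in DCT at 4 h was -0.10, and 1 member was past 2-fold in DCT at 1 h and 1 at 4 h. The gate for CNT took 1137, 1363, 1980 and 1652 cells, of which 92, 131, 165 and 151 were in the CNT-like class, and gave 0.60 for Hbegf at 4 h and 2, 0 and 0 members past 2-fold. With a mitochondrial limit of 25%, Egf in DCT-like cells was -0.70 at 1 h and -1.06 at 12 h, Errfi1 was 1.13 at 4 h, Egf in CNT-like cells was 0.96, 0.45 and -0.14, members past 2-fold in CNT-like cells numbered 0, 1 and 0, and Hbegf in PT-like cells at 4 h was -0.15. That limit left 79, 58, 144 and 78 DCT-like cells and 22, 21, 55 and 40 CNT-like cells.

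Male-called cells alone gave, in DCT-like cells, -0.31 for Egf at 1 h and 0.92, 0.58 and -1.08 for Errfi1. In CNT-like cells they gave 1.37 for Egf at 1 h, -0.12 for Errfi1 at 4 h, and 1 and 0 members past 2-fold at 4 and 12 h. In PT-like cells Hbegf was 2.22 at 1 h. Female-called cells alone gave, in DCT-like cells, -0.46 and -1.08 for Egf at 1 and 4 h and 1.91, 2.21 and -0.068 for Errfi1, with 2 members past 2-fold in CNT-like cells at 1 h. In PT-like cells they gave 3.95, 0.81 and -0.38 for Hbegf, 3, 2 and 0 members past 2-fold, and 0.34 for Errfi1 at 12 h.

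With cells weighted equally, Egf in DCT-like cells was -1.03 at 4 h and -1.39 at 12 h, and Hbegf in PT-like cells was 2.66 at 1 h and 0.063 at 4 h. Nuclear UMIs only, an alternative chosen after seeing the data, gave -1.09 for Egf in DCT-like cells and -0.12 for Hbegf in PT-like cells at 4 h. With a minimum of 1 UMI, pathway genes past 2-fold numbered 5 at 1 h and 5 at 12 h in DCT-like cells, 6, 7 and 7 in CNT-like cells, and 2 at 1 h and 1 at 12 h in PT-like cells, and members numbered 2, 4 and 2 in CNT-like cells and 1 at 4 h and 2 at 12 h in PT-like cells. With a minimum of 100 UMIs, pathway genes numbered 1, 1 and 1 in DCT-like cells and 0 at 4 h and 0 at 12 h in CNT-like cells, while members numbered 1 in DCT-like cells at 12 h and 0 and 1 in CNT-like cells at 1 and 4 h. Hbegf in DCT-like cells was found in 1.89%, 40.0%, 45.03% and 4.58% of cells thinned to 2000 UMIs at 0, 1, 4 and 12 h. Depth limits the members with few UMIs, namely Areg, Ereg and Tgfa throughout and Egfr in DCT-like cells.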
